A study of Mus musculus with 21 samples.

Results

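CD15 positive and CD15 negative tumour cells of Math1-GFP Patched mice were compared across all genes measured on 9 microarrays: 4 of CD15 positive cells (numbered 1, 5, 7 and 9 in their titles) and 5 of CD15 negative cells (numbered 2, 4, 6, 8 and 10). These are 9 of the 21 arrays of the study; the other 12 hold CD15 positive (6) and CD15 negative (6) cells of tumours named conventional Patched. All 4 groups are primary mouse medulloblastoma cells from the cerebellum, the tumours of both models are called Patched, and the arrays were chosen by the words math-1GFP in their titles. In the sample descriptions all 9 carry the conventional name; group membership here rests on the titles. Genotype beyond these names, age, sort gates and the number of animals are not given in the labels, and nothing there ties a sample to an animal of its own. The spread behind each p-value is therefore that between arrays, pooled over all 4 groups, which may be technical. Where arrays are paired below, it is the spread of the differences within pairs, pooled over both models. The question put by the sort is how the sorted fractions of these tumours differ in expression.

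Patched (Ptch1) is the receptor that holds Smoothened (Smo) inactive until Hedgehog ligand binds; when Patched is lost, Gli transcription factors stay active and granule neuron precursors of the cerebellum can go on to form medulloblastoma. Math1 (Atoh1) is a transcription factor of dividing granule neuron precursors, and GFP is a fluorescent reporter, here named with it. CD15, also called SSEA-1 or Lewis X, is a fucosylated sugar chain carried by neural progenitors among other cells. In the normal cerebellum, granule neuron precursors divide in the outer layer, leave the cell cycle, switch on neuronal cytoskeleton and adhesion genes, and migrate inwards.

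The granule lineage was plain in both fractions. Atoh1 gave signals of 789, 2370, 1115 and 1983 on CD15 positive arrays 1, 5, 7 and 9 and of 655, 2045, 2083, 1076 and 1597 on CD15 negative arrays 2, 4, 6, 8 and 10, so the groups overlapped. Zic1, a transcription factor of the same lineage, lay between 6598 and 9034 on CD15 positive and between 6539 and 9345 on CD15 negative arrays. In what follows, signals are the deposited intensities, array values are listed in the order of these numbers (1, 5, 7, 9 and 2, 4, 6, 8, 10), and a change is the difference of log2(signal + 32), CD15 positive minus negative, with its standard error. On this scale 1 is a 2-fold difference for a bright gene, and less than the true ratio for a dim gene.

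Median signals of the 9 arrays lay between 24.6 and 31.3, the GAPDH 3′ to 5′ ratios between 0.687 and 0.768 and the actin ratios between 1.25 and 1.53. Arrays 1 and 2 stood apart: their values correlated at a mean r of 0.936 with the other 7, which correlated at a mean of 0.971 with each other, and their titles lack an element that the other 7 titles carry and whose meaning is not given. Arrays with consecutive numbers (1 and 2, 5 and 6, 7 and 8, 9 and 10) deviated from their group means together, with correlations of the deviations of 0.59 to 0.68 in the 4 pairs against at most 0.14 in any other pair of a CD15 positive with a CD15 negative array. The labels do not state this pairing, so it is a hint from the data and not part of the stated design. Fits were therefore made both without pairs (the unpaired fit) and with consecutive arrays as a block (the paired fit), in which array 4 has no partner. Genes are called at an adjusted p under 0.05 in limma, and "rose" and "fell" below refer to calls of the paired fit unless the unpaired fit is named; changes of single genes are from the paired fit where no fit is named. In the unpaired fit the lists below had 0 calls, except Birc5 among the passenger genes, Dusp8, Plppr3 and Defa3 in theirs.

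Of 12367 genes tested, 5 passed in the unpaired fit (0.0404%), 2 higher (0.0162%) and 3 lower (0.0243%) in the CD15 positive fraction. Unadjusted, 1073 genes (8.68%) had a p under 0.05, 461 higher (3.73%) and 612 lower (4.95%), against 618 that chance alone would give. The paired fit called 900 genes (7.28%), 396 higher (3.20%) and 504 lower (4.08%), and all 5 genes of the unpaired fit were among them. Of these, 25 were at least 2-fold higher and 32 at least 2-fold lower. The shares of 3.20% higher and 4.08% lower are the background for the paired calls of every list below. The median standard error of a change was 0.18 in the unpaired and 0.12 in the paired fit, and the median change over all genes was 0.00 and 0.01. CD15 positive arrays were all above the CD15 negative arrays for 314 genes (2.54%) and all below for 344 (2.78%), while the CD15 positive array was the higher of all 4 pairs for 2364 genes (19.1%) and the lower of all 4 for 2229 (18.0%). The unpaired count rested on single arrays: 13 genes passed without CD15 positive array 1, 7 without CD15 negative array 6, and 0 when any of arrays 2, 4, 5, 7, 8, 9 and 10 was left out, or arrays 1 and 2 together (852 genes at an unadjusted p under 0.05 in that case). The paired count was 310 without arrays 1 and 2, 382 without 5 and 6, 430 without 7 and 8 and 256 without 9 and 10. Of the 117 genes named here that the paired fit called, 56 were called without each pair in turn and 22 in none of the 4 cases. Those lost numbered 44 without arrays 1 and 2, 43 without 5 and 6, 32 without 7 and 8 and 52 without 9 and 10.

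The 5 genes of the unpaired fit had groups that did not overlap. Birc5 (survivin), a subunit of the chromosomal passenger complex of mitosis, gave 1515, 1605, 1531 and 1429 on CD15 positive and 802, 1019, 937, 844 and 904 on CD15 negative arrays. Every CD15 positive array was above every CD15 negative array, by 0.74 ± 0.12 on the log2 scale (adjusted p = 0.030, limma). Defa3, annotated as an alpha defensin, an antimicrobial peptide, was dim: 54.1, 71.7, 65.4 and 48.4 against 17.6, 26.5, 22.8, 23.5 and 13.6. Its change was 0.80 ± 0.14 (adjusted p = 0.043), with very even pair differences of 0.80, 0.92, 0.81 and 0.82. Alpha defensins are close copies of each other, and Defa3 was the sole member of 17 listed with a probe set of its own symbol, so which copy was detected is uncertain.

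Dusp8, a phosphatase that inactivates stress-activated MAP kinases, gave 197, 127, 202 and 138 on CD15 positive and 491, 337, 364, 359 and 368 on CD15 negative arrays, a change of -1.08 ± 0.18 (adjusted p = 0.030). Plppr3, a membrane protein of growing axons related to lipid phosphate phosphatases, gave 83.8, 69.8, 90.0 and 59.5 against 234, 201, 187, 231 and 234. It fell by 1.21 ± 0.21 (adjusted p = 0.037). Rmc1, which takes part in late endosome maturation, gave 116, 117, 87.9 and 109 against 164, 187, 165, 169 and 215 and fell by 0.60 ± 0.11 (adjusted p = 0.037). In the paired fit Plppr3 changed by -1.24 ± 0.13 (adjusted p = 0.00097) and Dusp8 by -1.12 ± 0.15 (adjusted p = 0.0014). With pairs left out in turn, the paired fit kept 5 of these 5 calls without arrays 1 and 2, and 4 of 5 without arrays 9 and 10, where Rmc1 had an adjusted p of 0.063. In the unpaired fit without arrays 1 and 2 their adjusted p-values were 0.077 to 0.15.

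Genes of mitosis were higher in CD15 positive cells. Of 19 measured mitotic kinases, cyclins and phosphatases, 12 rose and 0 fell (background 3.20% and 4.08%), and 14 were higher in all 4 pairs (background 19.1%). In the unpaired fit 0 of the 19 were called and 14 had an unadjusted p under 0.05, all higher. Their median change was 0.54 in the unpaired and 0.47 in the paired fit. Ccnb2, cyclin B2, which partners Cdk1 to drive entry into mitosis, gave 984, 1521, 1046 and 1095 against 440, 780, 752, 564 and 541. All CD15 positive arrays were above all CD15 negative arrays, with a change of 0.98 ± 0.11 in the paired fit (adjusted p = 0.00099; unpaired 0.89 ± 0.20, adjusted p = 0.096). Plk1, a kinase of mitotic entry and spindle assembly, gave 633, 1009, 818 and 872 against 367, 362, 539, 379 and 464, a paired change of 0.88 ± 0.09 (adjusted p = 0.00097). Cdc25b and Cdc25c, the phosphatases that activate Cdk1, rose by 0.83 ± 0.10 and 0.97 ± 0.12. Cdk1 itself rose by 0.79 ± 0.11, Ccna2 by 0.81 ± 0.10, Nek2, a centrosome kinase, by 0.82 ± 0.13, and Wee1, the kinase that restrains Cdk1, by 0.47 ± 0.13. The transcription factor Foxm1, which drives many of these genes, was higher in 4 of 4 pairs but did not pass (0.47 ± 0.14, adjusted p = 0.064), and Mybl2 was higher in 2 of 4 pairs (0.16 ± 0.15, adjusted p = 0.56).

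**Figure D1:**
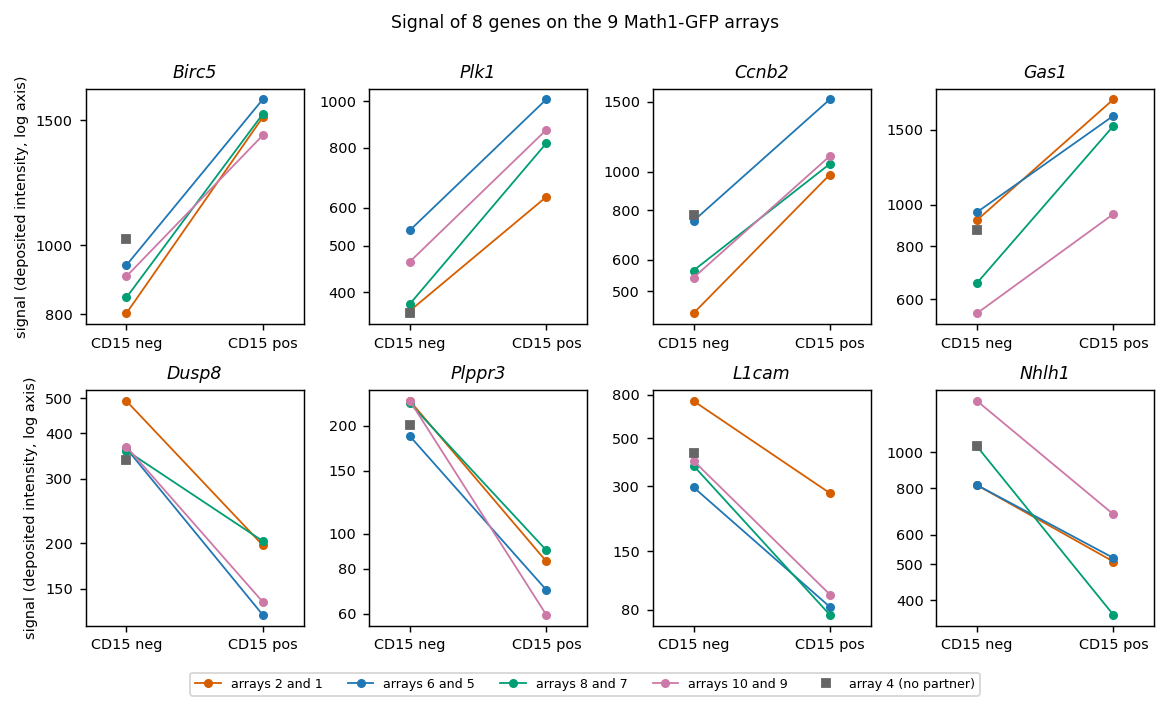
Signal (deposited intensity, log axis, a separate range in each panel) of 8 genes on the CD15 negative and CD15 positive arrays of Math1-GFP tumours; lines join arrays of consecutive numbers and the square is array 4. Birc5, Plk1, Ccnb2 and Gas1 were higher, and Dusp8, Plppr3, L1cam and Nhlh1 lower, on the CD15 positive side of all 4 pairs.

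Spindle and kinetochore genes showed the highest share of calls among the mitotic lists. Of 30 measured, 25 rose and 0 fell, 29 were higher in all 4 pairs, and 22 had groups that did not overlap (background 2.54%). The unpaired fit called 0, with 27 at an unadjusted p under 0.05, and the median change was 0.61 unpaired and 0.63 paired. Hmmr, a microtubule-associated motility factor, gave 582, 907, 590 and 680 against 265, 463, 494, 326 and 423 (paired change 0.83 ± 0.10, adjusted p = 0.0011). The spindle midzone protein Prc1 gave 802, 1177, 910 and 1084 against 484, 613, 727, 468 and 629 (0.76 ± 0.10, adjusted p = 0.0015). The kinesins Kif20a (0.89 ± 0.12) and Kif11 (0.81 ± 0.12), the spindle organiser Dlgap5 (0.72 ± 0.11) and the checkpoint kinase Bub1b (0.85 ± 0.12) rose as well. The exception to the 4-pair pattern was Kifc1, higher in 3 pairs.

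The passenger complex, anaphase and cytokinesis list had 11 of 14 members called higher, 0 called lower and 14 of 14 higher in all 4 pairs; the unpaired fit called 1, Birc5, with 10 at an unadjusted p under 0.05. Ube2c, the ubiquitin-conjugating enzyme of the anaphase-promoting complex, gave 3441, 4948, 3782 and 3298 against 1508, 2329, 2622, 1972 and 1537. Its change was the largest of the list, 1.02 ± 0.15 in the paired fit (adjusted p = 0.0022) and 0.96 ± 0.21 in the unpaired fit (adjusted p = 0.096). Its list mates Cdca8 (0.68 ± 0.12), Espl1, the separase (0.73 ± 0.14), and Fzr1 (0.45 ± 0.12) also rose. Outside these lists, Nde1, which acts with dynein at the spindle, Cks1b, which binds cyclin-dependent kinases, and Gtse1, a microtubule-binding protein of G2 and M, were among the genes of smallest unpaired p. Nde1 gave 531, 676, 475 and 450 against 332, 356, 322, 262 and 249 and changed by 0.80 ± 0.13 in the paired fit. Cks1b, at 4948 to 5546 against 3675 to 4019, changed by 0.45 ± 0.08, and Gtse1 by 0.66 ± 0.12.

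Chromosome condensation genes were called in part. Of 17 condensin, cohesin and topoisomerase II genes, 8 rose and 0 fell, with a median change of 0.28 and 0 unpaired calls (8 higher and 1 lower at an unadjusted p under 0.05). The 8 were Top2a, the topoisomerase of dividing cells (0.65 ± 0.11), the condensin subunits Smc2, Smc4, Ncapd2, Ncapg and Ncaph, and the shugoshins Sgo1 (0.64 ± 0.13) and Sgo2a (0.71 ± 0.11), which protect centromeric cohesion. Of the condensin subunits, Smc4 and Ncapg passed when any pair was omitted, and Smc2, Ncapd2 and Ncaph in none of the 4 cases (adjusted p from 0.057 to 0.14). The cohesin subunits named here did not pass, and their difference from condensin was not tested: Smc1a changed by 0.21 ± 0.10, Stag1 by 0.07 ± 0.09 and Stag2 by 0.21 ± 0.11. Top2b, the topoisomerase of postmitotic cells, gave 1461, 1273, 1522 and 1570 against 1977, 1454, 1578, 2162 and 1736, lower in 4 of 4 pairs, but did not pass (-0.34 ± 0.11, adjusted p = 0.085). When each pair was left out in turn, these lists had 0 genes called lower. Called higher were 10 of 19 mitotic kinases and cyclins in each case and 16 to 19 of 30 spindle genes. Of the other lists, 5 to 7 of 14 passenger and anaphase genes and 4 of 17 condensation genes were called higher. Wee1, Fzr1 and Sgo1 passed in none of these cases (adjusted p from 0.051 to 0.18).

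Promoters of the mitotic genes are shown because cell-cycle genes of this phase are known for a repeated CCAAT box and, nearer the start, a cell cycle homology region. The sequences are the 120 bases before the RefSeq transcript start (GRCm38.p6), 5′ to 3′ on the strand of the gene, and capitals mark CCAAT or its complement ATTGG, and the homology region core TTTGAA, its complement TTCAAA, or TTCGAA, which is its own complement. These 5 genes of the mitotic lists were chosen after their values were seen, and Birc5 is the one without a match.
Birc5: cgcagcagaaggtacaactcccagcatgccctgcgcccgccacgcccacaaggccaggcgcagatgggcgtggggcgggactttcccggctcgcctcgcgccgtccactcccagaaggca
Ccnb2: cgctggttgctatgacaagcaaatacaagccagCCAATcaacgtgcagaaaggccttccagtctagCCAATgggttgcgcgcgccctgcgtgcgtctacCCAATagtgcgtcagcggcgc
Ube2c: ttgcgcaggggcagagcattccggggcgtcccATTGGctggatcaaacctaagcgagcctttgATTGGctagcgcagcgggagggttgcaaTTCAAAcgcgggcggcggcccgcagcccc
Plk1: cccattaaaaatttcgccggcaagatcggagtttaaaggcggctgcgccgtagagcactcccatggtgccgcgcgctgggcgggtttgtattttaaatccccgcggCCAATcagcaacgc
Cdc25b: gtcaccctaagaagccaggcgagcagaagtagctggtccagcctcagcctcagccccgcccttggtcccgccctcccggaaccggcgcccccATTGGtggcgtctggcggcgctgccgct
The Birc5 window (chr11:117849117-117849236, plus strand) holds 0 CCAAT boxes and 0 core matches. The Ccnb2 window (chr9:70421555-70421674, minus strand) holds 3 CCAAT boxes, starting 87, 54 and 21 bases before the transcript start. The Ube2c window (chr2:164769809-164769928, plus strand) holds 2, at 88 and 57 bases, and a core match at 29 bases. The Plk1 window (chr7:122159315-122159434, plus strand) and the Cdc25b window (chr2:131186828-131186947, plus strand) hold 1 each, at 14 and 28 bases.

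Over the 250 bases before the start, searched on both strands, 35 of the 49 mitotic list genes with a promoter in the table held a CCAAT box (71.4%), 17 a core match (34.7%) and 14 both (28.6%). Of all 32851 promoters in the table, 33.8% held a CCAAT box, 17.1% a core match and 6.02% both; of the 9997 tested genes with a promoter the shares were 40.5%, 14.4% and 5.38%. The DNA replication list, described next, had 65.2%, 21.7% and 17.4% of 23 genes with a promoter. The neuronal microtubule and synaptic lists together had 25.0%, 19.4% and 5.56% of 36 genes. A promoter was counted once however many matches it held, and a gene was counted if any of its promoters held a match. The 32851 are single promoters, so the like comparison for the lists is with the 9997 genes. The motifs can overlap at their ends, and a match is a string of letters and not a shown binding site.

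Among S phase genes the share of calls was near that of all genes, though the genes leaned higher. Of 28 DNA replication and nucleotide synthesis genes, 1 rose against a background of 3.20% and 0 fell. The gene called was Tk1, thymidine kinase (0.48 ± 0.13, adjusted p = 0.047). The median change was 0.11 unpaired and 0.13 paired, with 0 calls when any pair was omitted. In all 4 pairs, 10 of the 28 were higher and 2 lower (background 19.1% and 18.0%). In the unpaired fit 4 had an unadjusted p under 0.05, all higher (background 3.73%). The replication clamp Pcna gave 6495, 5994, 7807 and 6679 against 4788, 7624, 5355, 6501 and 4769, overlapping groups with a paired change of 0.34 ± 0.13 (adjusted p = 0.15). The ribonucleotide reductase subunit Rrm2 changed by 0.15 ± 0.11, and cyclin E2 (Ccne2) was lower in all 4 pairs (-0.14 ± 0.10). Of 20 G1 cyclins, inhibitors, E2F and Myc genes, 0 rose and 0 fell in the paired fit. In the unpaired fit 1 had an unadjusted p under 0.05. In all 4 pairs, 9 of the 20 were higher and 1 lower. Cyclin D1 (Ccnd1), a Hedgehog-responsive G1 cyclin, gave 3099, 3807, 3582 and 3361 against 2460, 3759, 3010, 2828 and 2868 (0.31 ± 0.12, adjusted p = 0.14), and Mycn, the main Myc gene of granule precursors, changed by -0.06 ± 0.13.

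**Figure D2:**
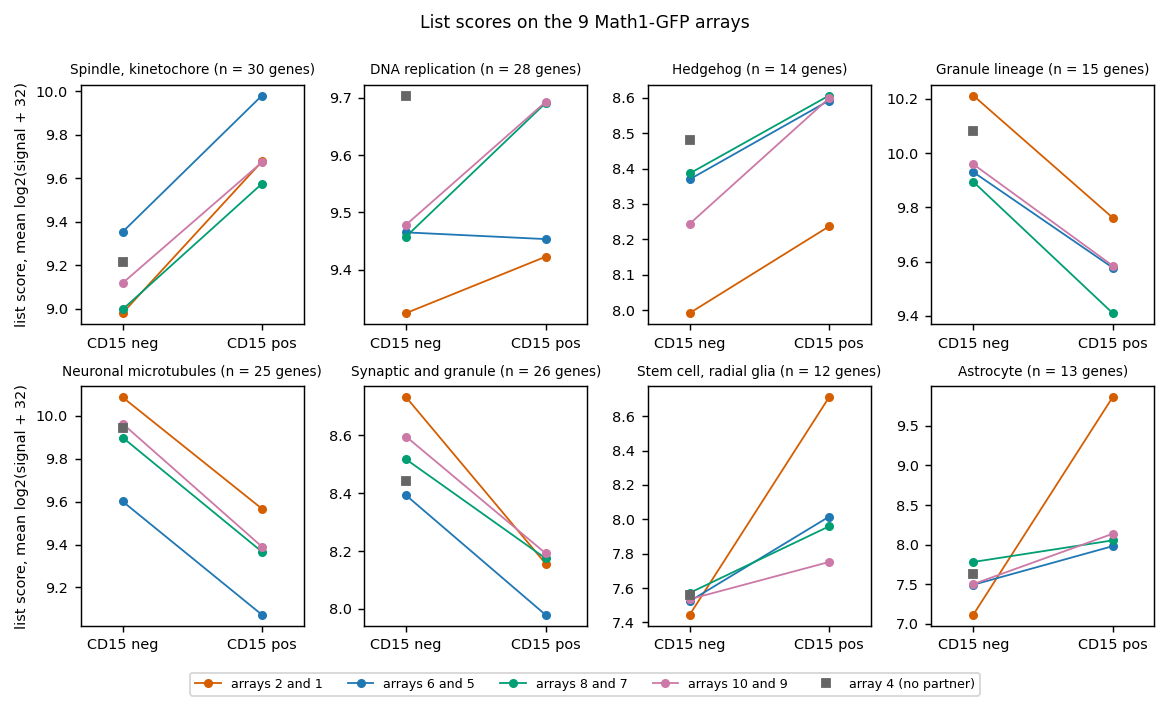
Mean log2(signal + 32) of 8 gene lists on each Math1-GFP array (a separate range in each panel); lines join arrays of consecutive numbers and the square is array 4. The spindle list lay at 8.98 to 9.35 on CD15 negative and 9.58 to 9.98 on CD15 positive arrays, the DNA replication list overlapped, and the astrocyte list was highest on array 1 at 9.86.

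Hedgehog pathway genes leaned towards CD15 positive cells. Of 14 measured, 4 rose and 0 fell (background 3.20% and 4.08%), and 8 were higher in all 4 pairs (background 19.1%). The unpaired fit called 0 (1 at an unadjusted p under 0.05), and the median change was 0.25 unpaired and 0.31 paired. Gas1, a coreceptor of Hedgehog ligand, led with 1770, 1620, 1534 and 952 against 922, 873, 962, 656 and 557 (0.89 ± 0.15, adjusted p = 0.0056); CD15 positive array 9 lay within the CD15 negative range. Gli1, the transcription factor whose own gene is a Hedgehog target, gave 361, 650, 606 and 602 against 226, 542, 468, 406 and 350 (0.58 ± 0.14, adjusted p = 0.029). Hhip, a decoy receptor and target, rose by 0.65 ± 0.15 and Smo by 0.41 ± 0.11. Ptch1, the receptor and also a target, gave 831, 2219, 2077 and 4258 against 620, 2133, 1654, 1879 and 3144, higher in 4 of 4 pairs without passing (0.35 ± 0.15, adjusted p = 0.19). Its probe sets were not checked against the altered part of the Patched allele, which the labels do not describe, so they check nothing about the genotype. Boc (0.36 ± 0.12), Gli2 (0.11 ± 0.13) and Sufu (-0.16 ± 0.13) did not pass. With pairs left out in turn the list had 1 to 2 calls, and Gli1 had adjusted p-values from 0.067 (without arrays 5 and 6) to 0.12 (without 9 and 10). Smo did not pass without any pair, Hhip passed without arrays 1 and 2 alone, and Gas1 passed in all 4 cases.

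Of 15 Notch pathway genes, 2 rose (background 3.20%), both receptors. Notch2 gave 626, 729, 395 and 379 against 305, 394, 483, 302 and 247 (0.61 ± 0.11, adjusted p = 0.0066). Notch1 changed by 0.50 ± 0.13 (adjusted p = 0.033). Notch2 passed when any pair was omitted and Notch1 did not. The ligand Jag1 was higher in 4 of 4 pairs (0.66 ± 0.19, adjusted p = 0.052), and the targets Hes1 (0.25 ± 0.17) and Hes5 (0.47 ± 0.19) did not pass. The inhibitors of differentiation Id1 (926, 734, 933 and 1005 against 524, 576, 537, 451 and 790) and Id3 rose, by 0.64 ± 0.12 and 1.08 ± 0.27, while the other 9 genes of the Id, E protein and NFI list did not pass. Id3 was far higher on array 1 than elsewhere, at 401 against 42.6 to 99.2 on the other CD15 positive arrays, and without arrays 1 and 2 its change was 0.59 (adjusted p = 0.082). Id3 also failed without 5 and 6 (0.069) and 9 and 10 (0.082), and Id1 without 1 and 2 (0.060) and 7 and 8 (0.058).

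Several transcription factors of granule neuron differentiation were lower in CD15 positive cells, while Atoh1, Pax6 and Zic1 did not pass. Of 15 measured granule lineage factors, 8 fell and 0 rose, 10 were lower in all 4 pairs (background 18.0%), the unpaired fit called 0 (7 lower at an unadjusted p under 0.05), and the median change was -0.49 unpaired and -0.48 paired. Nhlh1, a helix-loop-helix factor of cells leaving the cycle, gave 509, 520, 366 and 681 against 816, 1041, 816, 1036 and 1372, groups that did not overlap (-0.92 ± 0.17, adjusted p = 0.0096). Its relative Nhlh2 gave 1483, 970, 1301 and 2081 against 2631, 2369, 1709, 2395 and 3210 (-0.77 ± 0.13, adjusted p = 0.0050). Neurod1, which drives granule neuron differentiation, fell by 0.63 ± 0.17 and Neurod2 by 0.68 ± 0.13. Neurod1 passed in none of the 4 cases with a pair left out (adjusted p from 0.053 to 0.16). Zic5 (-0.73 ± 0.16), Zic2 (-0.65 ± 0.17), Zic4 (-0.48 ± 0.10) and Meis1 (-0.48 ± 0.09) fell too. Against these, Atoh1 changed by 0.20 ± 0.15 (unpaired 0.06 ± 0.39, adjusted p = 0.99), Pax6 by -0.06 ± 0.12 and Zic1 by -0.01 ± 0.14. With each pair left out in turn, the list had 2 to 7 calls. In sorted populations a smaller share of cells that express a gene and less RNA per cell cannot be told apart, here and in all that follows.

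Neuronal cytoskeleton genes were lower in CD15 positive cells, by more than 2-fold for the leading members. Of 25 measured, 11 fell and 0 rose (background 4.08% and 3.20%), and 19 were lower in all 4 pairs (background 18.0%). The unpaired fit called 0 (14 lower at an unadjusted p under 0.05), with a median change of -0.48 unpaired and -0.46 paired. Stmn2, a microtubule destabiliser of growth cones, gave 1348, 495, 747 and 651 against 3013, 2635, 1622, 2236 and 2145, without overlap (-1.50 ± 0.16, adjusted p = 0.00097). Stmn4 fell by 1.39 ± 0.19 and Dpysl3, a collapsin response mediator, by 1.19 ± 0.13. Mapt, the microtubule-associated protein tau, gave 283, 298, 287 and 227 against 730, 553, 409, 493 and 623 (-0.94 ± 0.17, adjusted p = 0.0067; unpaired -0.94 ± 0.18, adjusted p = 0.061). The migration gene Dcx (-0.77 ± 0.11), the neuronal tubulin Tubb3 (-0.91 ± 0.17) and the axonal motor Kif5a (-1.03 ± 0.26) fell as well. Stmn1, which dividing precursors also express, went the other way without passing (0.27 ± 0.15), and so did Dclk1 (0.39 ± 0.12, adjusted p = 0.068), 5 of whose 8 probe sets pointed against the one used. Across omitted pairs, 7 to 8 of the 25 were called lower, and Kif5a in none of the cases (adjusted p from 0.073 to 0.14).

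The largest fall of all genes called was in Cntn2 (TAG-1), an adhesion molecule that marks granule cells as they leave the cycle: 479, 135, 69.6 and 360 against 1522, 553, 707, 464 and 1296. The groups touched, because array 1 exceeded array 8, yet the CD15 positive array was lower in 4 of 4 pairs, by 1.95 ± 0.14 (adjusted p = 6.9e-05). L1cam, an adhesion molecule of growing axons, gave 279, 82.6, 75.8 and 94.3 against 746, 426, 297, 374 and 394 and fell by 1.63 ± 0.20. Of the 28 adhesion and axon guidance genes, Unc5b, a netrin receptor (-0.80 ± 0.14), and the ephrin Efnb2 (-0.51 ± 0.14) fell in addition, making 4, and 1 rose: Chl1, a close homologue of L1cam, with 255, 232, 90.3 and 59.9 against 23.2, 41.2, 67.8, 55.1 and 34.3 (1.18 ± 0.24, adjusted p = 0.013). The chemokine receptor Cxcr4 (0.37 ± 0.10, adjusted p = 0.051) and Reln, which granule cells secrete (-0.39 ± 0.15), did not pass. Across omitted pairs, 3 were called lower and 0 to 1 higher. Chl1 failed without arrays 5 and 6 (adjusted p = 0.059), and Efnb2 failed in all 4 cases (adjusted p from 0.074 to 0.20). The unpaired fit called 0 of the 28 (1 higher and 3 lower at an unadjusted p under 0.05).

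Synaptic genes fell in 10 of 26 cases, with 0 rising and a median of -0.35; the unpaired fit called 0 (10 lower at an unadjusted p under 0.05). Chgb, a dense-core granule protein, gave 548, 250, 456 and 532 against 1119, 809, 817, 826 and 1171 (-1.12 ± 0.16, adjusted p = 0.0018), and Snap91, an adaptor of vesicle recycling, 148, 115, 223 and 180 against 411, 307, 310, 460 and 422 (-1.14 ± 0.14, adjusted p = 0.0012). Both had groups that did not overlap. Syt11 (-0.72 ± 0.12), Syp (-0.82 ± 0.16), Snap25 (-0.66 ± 0.11) and the vesicular glutamate transporter Slc17a6 (-0.95 ± 0.20) fell too, while Cplx2 was higher in 4 of 4 pairs without passing (0.38 ± 0.11, adjusted p = 0.052). Of 23 ion channels and receptors 6 fell and 0 rose, led by the sodium channel Scn3a (-0.91 ± 0.16), the potassium channel Kcnk1 (-0.91 ± 0.20) and the AMPA receptor subunit Gria2 (-0.72 ± 0.14). Gria2 gave 604, 757, 251 and 328 against 902, 1100, 1172, 485 and 614. When pairs were omitted in turn, 4 to 7 synaptic and 2 to 4 channel genes were called lower. Kcnk1 failed without arrays 5 and 6 (adjusted p = 0.059), 7 and 8 (0.056) and 9 and 10 (0.11). Slc17a6 failed without 1 and 2 (0.065), 5 and 6 (0.067) and 9 and 10 (0.051). Gria2 failed without 7 and 8 (0.052) and 9 and 10 (0.062), and Syp without 1 and 2 (0.057) and 9 and 10 (0.053).

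Of 18 neuronal RNA-binding proteins 7 fell and 0 rose, with a median of -0.37; the unpaired fit called 0 (6 lower at an unadjusted p under 0.05). Elavl4 (HuD), which stabilises neuronal transcripts, gave 284, 276, 467 and 515 against 592, 709, 563, 770 and 1064, without overlap (-0.91 ± 0.12, adjusted p = 0.0014). Celf5 (-0.76 ± 0.14), Celf4 (-0.68 ± 0.14), Elavl3 (-0.65 ± 0.13) and the splicing regulator Srrm4 (-0.62 ± 0.16) fell, and Ptbp1, the splicing repressor of dividing progenitors, was higher in 4 of 4 pairs without passing (0.34 ± 0.14, adjusted p = 0.18). Srrm4 passed in none of the cases with a pair left out (adjusted p from 0.057 to 0.14). Celf4 failed without arrays 1 and 2 (adjusted p = 0.081), 5 and 6 (0.052) and 9 and 10 (0.051). Elavl3 failed without 7 and 8 (0.0502) and 9 and 10 (0.051), and Celf5 without 9 and 10 (0.054). Across omitted pairs, 2 to 4 of the 18 were called lower. Among 18 subunits of BAF chromatin remodelling complexes, 3 fell (background 4.08%), 2 of them subunits of the neuronal form. Actl6b gave 84.5, 69.8, 126 and 75.8 against 131, 137, 150, 182 and 172 (-0.67 ± 0.11, adjusted p = 0.0037), and Ss18l1 gave 89.8, 90.3, 105 and 80.6 against 202, 124, 124, 143 and 198 (-0.67 ± 0.16, adjusted p = 0.026). Their progenitor counterparts Actl6a (-0.13 ± 0.13) and Ss18 (0.22 ± 0.09) did not pass, and the third fall was Smarcd2 (-0.70 ± 0.14), for which 1 of 3 probe sets pointed the other way. The BAF list's median was -0.03 in the paired fit, and without arrays 1 and 2 it had 1 call. Ss18l1 failed without arrays 1 and 2 (adjusted p = 0.12) and 9 and 10 (0.13), and Smarcd2 without 1 and 2 (0.063) and 5 and 6 (0.059).

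**Figure D3:**
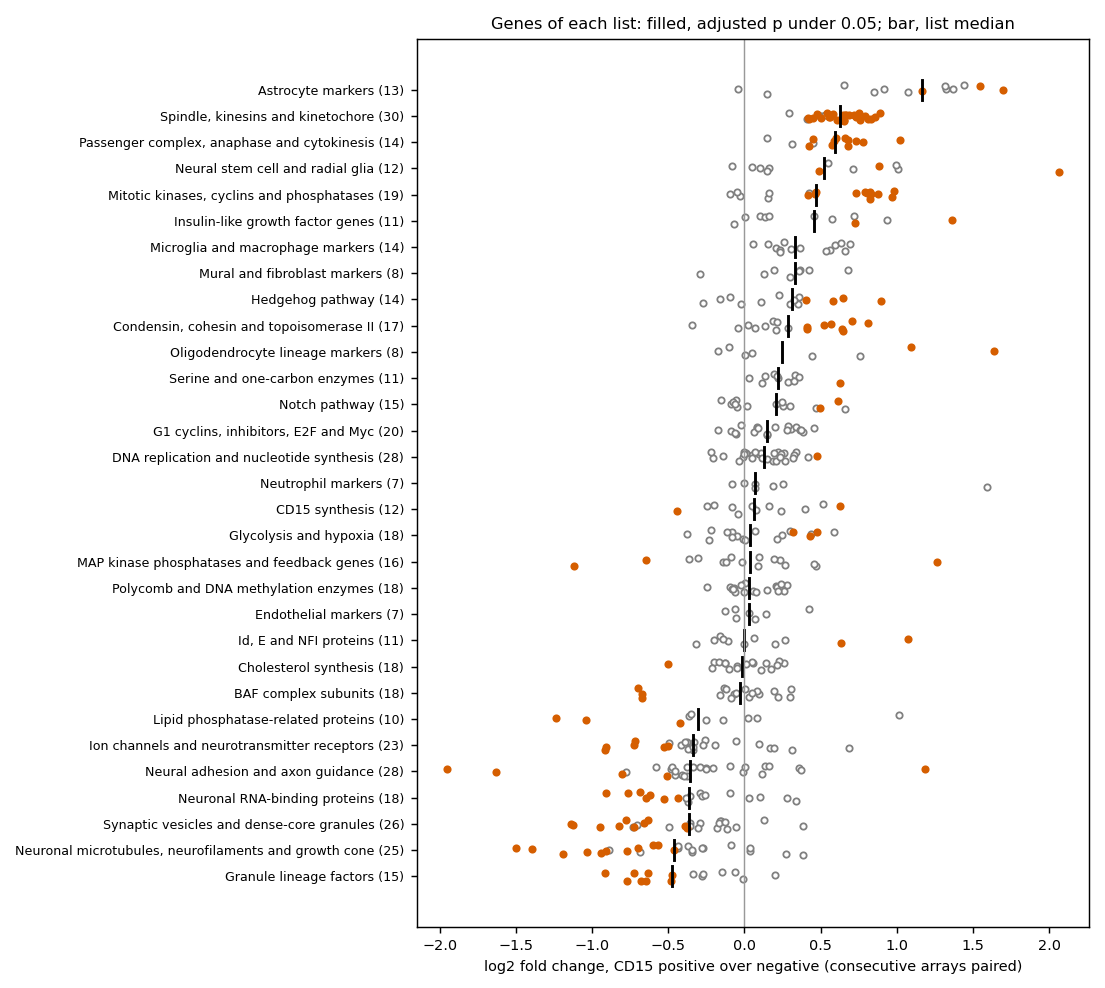
Change (log2 scale, CD15 positive over negative, paired fit) of each measured gene in 31 lists, with the number of genes in brackets; filled points have an adjusted p under 0.05, open points do not, and bars are list medians. The 3 mitotic lists lie to the right with medians of 0.47 to 0.63, and the granule lineage and neuronal lists to the left.

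Other genes of smallest unpaired p that were lower in CD15 positive cells without passing there were Mmp24, a membrane metalloproteinase of neurons (107, 148, 157 and 97.6 against 230, 262, 205, 248 and 292; unpaired -0.82 ± 0.15, adjusted p = 0.055), Porcn, which acylates Wnt ligands (210, 113, 112 and 120 against 390, 268, 272, 249 and 237; -0.90 ± 0.18, adjusted p = 0.061), Tmtc2 (-1.11 ± 0.22, adjusted p = 0.061), Apc2 (-0.82 ± 0.16, adjusted p = 0.065) and Dnajc6, an auxilin (-0.74 ± 0.15, adjusted p = 0.065). All 5 fell in the paired fit, and Porcn, Tmtc2 and Dnajc6 passed there when any pair was omitted. Apc2 failed without arrays 1 and 2 (adjusted p = 0.062), 7 and 8 (0.0502) and 9 and 10 (0.051). Mmp24 failed without 1 and 2 (0.069) and 9 and 10 (0.089). The largest falls of the paired fit outside the lists were in Klhl35 (15.3, 31.4, 32.8 and 115 against 136, 194, 149, 143 and 406; -1.59 ± 0.18), the synaptic vesicle protein Synpr (-1.37 ± 0.17), Pdzrn3 (-1.30 ± 0.14), the zinc-finger factor Myt1 (-1.29 ± 0.17) and Mllt11 (-1.28 ± 0.10), for which 1 of 2 probe sets pointed the other way. The galanin receptor Galr1 was also called, at 2.30 to 5.59 on CD15 positive and 18.9 to 111 on CD15 negative arrays. The CD15 positive values lie below the filter signal of 15.5, so no size is given, and the call failed without arrays 5 and 6, 7 and 8, and 9 and 10 (adjusted p = 0.062, 0.084 and 0.074).

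The list of lipid phosphatase-related proteins was chosen with earlier results of these data known and holds Plppr3 itself. Of 10 measured, 3 fell and 0 rose (background 4.08% and 3.20%): Plppr3, its axonal relative Plppr1 and Plpp5. Plppr1 gave 355, 251, 235 and 471 against 746, 577, 511, 611 and 938 (-1.04 ± 0.11, adjusted p = 0.00097). Plpp5 (-0.42 ± 0.09) failed without arrays 5 and 6 (adjusted p = 0.059), 7 and 8 (0.088) and 9 and 10 (0.080). Of 16 MAP kinase phosphatases and feedback genes, Dusp8 and Dusp14 (-0.64 ± 0.14) fell and Etv5 rose. Etv5, an ETS factor induced by growth factor signalling, gave 471, 918, 799 and 299 against 296, 292, 282, 348 and 69.2, a change of 1.26 ± 0.32 (adjusted p = 0.035). It did not pass when any pair was omitted (adjusted p = 0.055 without arrays 1 and 2, 0.12 without 5 and 6, 0.091 without 7 and 8, 0.15 without 9 and 10). The related feedback genes Dusp6 (0.47 ± 0.14) and Spry4 (0.46 ± 0.17) did not pass. Lists of Polycomb and DNA methylation enzymes (18 genes), immediate early genes (15) and apoptosis genes (16) had 0 calls in the paired fit, with unadjusted p-values under 0.05 in the unpaired fit for 0, 1 and 0 of their members.

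Genes of glia and neural stem cells had the largest rises, and for most of them array 1 carried much of the size. Fabp7, the fatty acid-binding protein of radial glia, gave 3088, 175, 124 and 388 against 83.6, 67.8, 56.9, 44.9 and 143. Array 1 was the highest by far, yet the CD15 positive array was higher in the other 3 pairs as well, by 1.22, 1.02 and 1.26 against 4.75 in the first. The paired change was 2.06 ± 0.52 (adjusted p = 0.033), and without arrays 1 and 2 it was 1.17 (adjusted p = 0.083); without 5 and 6 or 9 and 10 it was larger but did not pass either (adjusted p = 0.059 and 0.068). The same held for Apoe (4309, 504, 415 and 778 against 236, 389, 162, 242 and 500): 1.70 ± 0.43 (adjusted p = 0.033), and 0.92 (adjusted p = 0.063) without those arrays. Sparcl1, an astrocyte matrix protein, changed by 1.54 ± 0.38 with and 0.83 (adjusted p = 0.043) without them, and Slc1a3, the glial glutamate transporter, by 1.17 ± 0.25 and 0.73 (adjusted p = 0.039). Leaving out another pair also ended calls: Apoe without 5 and 6 (adjusted p = 0.080), Sparcl1 without 5 and 6 (0.076) and 9 and 10 (0.052), and Slc1a3 without 9 and 10 (0.061).

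Of 13 measured astrocyte markers these 3 (Apoe, Sparcl1 and Slc1a3) rose and 10 were higher in all 4 pairs (background 3.20% and 19.1%). The list's median change was 1.11 in the unpaired fit, and 0.57 without arrays 1 and 2. Gfap, the astrocyte filament protein, and Aqp4, the water channel of astrocyte endfeet, did not pass (1.07 ± 0.39 and 1.37 ± 0.45). Aqp4 was at 29.0, 37.6 and 67.9 on arrays 5, 7 and 9 and 679 on array 1, against 11.7 to 22.5 on CD15 negative arrays. Aldh1l1, Gjb6 and Mlc1 were below the filter on low signals, though Mlc1 reached 362 on array 1. The summed signal of the 13 genes was 15177 on array 1, 5203 to 5740 on the other CD15 positive and 2873 to 5304 on CD15 negative arrays. Their part in the other results was not tested.

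Of 12 stem cell and radial glia genes, 3 rose: Fabp7, Sox9 (0.49 ± 0.13, adjusted p = 0.038) and Prom1. Prom1 (CD133), a membrane protein of stem cells, did not depend on array 1: it gave 258, 329, 261 and 242 against 136, 162, 182, 120 and 99.1, without overlap (0.89 ± 0.12, adjusted p = 0.0017), with pair differences of 0.79, 0.75, 0.94 and 1.06, and passed when any pair was omitted, which Sox9 did not. Sox2, the stem cell factor, was higher in 4 of 4 pairs without passing (1.01 ± 0.28, adjusted p = 0.051), and Nes (nestin) was higher in 2 (-0.08 ± 0.47). Of 8 oligodendrocyte lineage genes 2 rose. Olig1, an oligodendrocyte lineage factor, gave 639, 875, 718 and 457 against 85.4, 323, 312, 302 and 143, without overlap (1.64 ± 0.21, adjusted p = 0.0014), and remained called when any pair was omitted, at 1.35 to 1.80. Its partner Olig2 was higher in 4 of 4 pairs without passing (0.76 ± 0.22, adjusted p = 0.059), and the myelin enzyme Cnp rose by 1.09 ± 0.28 (0.62 and adjusted p = 0.098 without arrays 1 and 2, and 0.070 and 0.068 without 7 and 8 and 9 and 10).

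Unlisted genes among the 10 largest rises were Gpr37l1, a receptor of astrocytes (556, 66.4, 63.1 and 82.8 against 31.0, 19.3, 11.2, 18.8 and 32.1), the ceruloplasmin gene Cp, the carbonic anhydrase Car2 and podoplanin (Pdpn). Their changes were 1.54 ± 0.32, 1.48 ± 0.41, 1.42 ± 0.38 and 1.24 ± 0.27. Without arrays 1 and 2 Gpr37l1 (0.98, adjusted p = 0.024) and Car2 (0.69, adjusted p = 0.032) passed, and Cp (0.71, adjusted p = 0.082) and Pdpn (0.81, adjusted p = 0.062) did not. Without 5 and 6 Car2 (0.074), Cp (0.095) and Pdpn (0.052) failed, and without 9 and 10 Car2 (0.067) and Cp (0.11), while Gpr37l1 passed in all 4 cases. Of 11 insulin-like growth factor genes 2 rose (background 3.20%). They were Igfbp2, a binding protein of glia and progenitors (1.36 ± 0.35), and Igf2, a growth factor in Hedgehog-driven tumours (0.72 ± 0.19). Igf2 itself ranged widely, at 2543, 760, 73.3 and 310 against 1796, 105, 271, 49.4 and 188, and Igfbp2 had an adjusted p of 0.12 without arrays 1 and 2, 0.10 without 5 and 6 and 0.084 without 9 and 10. Igf2 did not pass when any pair was omitted.

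**Figure D4:**
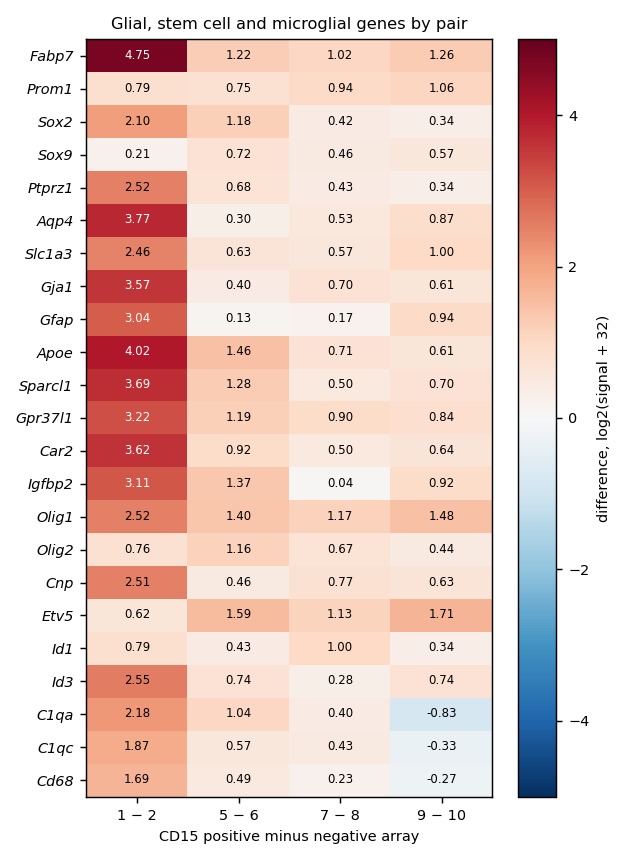
Difference of log2(signal + 32) between the CD15 positive and the CD15 negative array of each consecutive pair, for 23 genes of glia, stem cells and microglia; red is higher and blue lower in CD15 positive cells. The first pair holds the largest differences for most genes (Fabp7 4.75, Apoe 4.02), Prom1 and Etv5 are positive in all 4 pairs with a larger difference in the last pair (1.06 and 1.71), and C1qa turns negative in the last pair.

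Markers of cells outside the neural lineage gave no calls. Of 14 measured microglia and macrophage markers 0 passed in either fit (0 at an unadjusted p under 0.05 in the unpaired fit). Their summed signal was 2643 on array 1, 537 to 668 on the other CD15 positive arrays and 347 to 847 on the CD15 negative arrays, and the list's median change was 0.31, or -0.01 without arrays 1 and 2. C1qa gave 241, 44.6, 52.1 and 28.6 against 28.2, 74.3, 5.22, 31.9 and 76.1. Of 13 neutrophil markers, Camp, Ltf, Elane, Cxcr2 and Mmp8 lay below the filter, 7 passed it and 0 were called. Their summed signal was 4551 on array 1, where Lcn2 alone gave 4067, and 98.4 to 220 on the other CD15 positive against 73.1 to 473 on CD15 negative arrays. Endothelial markers summed to 181 to 423 against 185 to 300 (7 of 12 measured, Pecam1 below the filter) and mural and fibroblast markers to 280 to 967 against 224 to 376 (8 of 8 measured), with 0 calls in both. Of 9 lymphocyte, 7 erythroid and 8 Purkinje and inhibitory neuron markers, 1, 1 and 2 passed the filter.

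Few genes that make the sorted antigen were called. Of 12 measured genes of CD15 synthesis, 1 rose and 1 fell, against backgrounds of 3.20% and 4.08% over all genes. Fut9, the fucosyltransferase that makes most CD15 in the brain, was lower in 4 of 4 pairs, at 231, 427, 400 and 374 against 305, 553, 611, 634 and 464 (-0.44 ± 0.11, adjusted p = 0.033); leaving out any pair gave adjusted p-values of 0.080 to 0.13. B3gnt2, which extends the chains that carry the antigen, gave 97.5, 54.1, 59.1 and 53.3 against 43.0, 54.1, 39.3, 20.2 and 22.1 and rose by 0.63 ± 0.12 (adjusted p = 0.012), but had adjusted p-values of 0.063, 0.058 and 0.059 without arrays 1 and 2, 7 and 8, and 9 and 10. Fut4, the other fucosyltransferase of CD15, was below the filter, at 2.27 to 11.2 on CD15 positive and 0.87 to 8.23 on CD15 negative arrays. B4galt1, a galactosyltransferase of the same chains, was higher in 4 of 4 pairs without passing (0.40 ± 0.12, adjusted p = 0.064).

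Among metabolic genes, calls were made for serine synthesis, glycolysis and cholesterol synthesis. Phgdh, the first enzyme of serine synthesis, gave 1981, 2232, 1633 and 976 against 1178, 1497, 1441, 1146 and 604 and rose by 0.63 ± 0.13 (adjusted p = 0.013), the sole call of 11 serine and one-carbon enzymes (background 3.20%). It failed without arrays 1 and 2 (adjusted p = 0.063), 5 and 6 (0.0504) and 9 and 10 (0.063). Of 18 glycolysis and hypoxia genes, 3 rose against the same background: Ldha (0.48 ± 0.12), Pkm (0.43 ± 0.12) and Pgam1 (0.32 ± 0.09), and 0 of them remained called when any pair was omitted. Of 18 cholesterol synthesis genes, 1 fell against a background of 4.08%: Mvd (-0.50 ± 0.13), with 0 calls when any pair was omitted.

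The same sort in conventional tumours called 1006 genes (8.13%), 377 higher (3.05%) and 629 lower (5.09%), in the fit without pairs. The arrays of the models are separate, although they share the estimate of spread. Of the 900 genes called in the paired Math1-GFP fit, 407 were called in the same direction there (45.2% of these and 40.5% of the conventional calls), 138 higher and 269 lower, and 0 were called in the opposite direction. The paired Math1-GFP change had the sign of the unpaired conventional change for 886 of the 900 and for 73.0% of all genes. Birc5 changed by 0.74 in Math1-GFP and 1.00 in conventional tumours, Plppr3 by -1.21 and -1.53, Dusp8 by -1.08 and -0.92, and Defa3 by 0.80 and 0.30. The DNA replication list had a median change of 0.11 in Math1-GFP and 0.45 in conventional tumours, where 12 of 28 genes were called higher, but no gene of it passed the test of the difference.

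That test, the interaction of CD15 fraction and model, called 0 genes without pairs (279 at an unadjusted p under 0.05, 2.26%) and 1 with pairs in both models (0.00809%). The gene was Sorl1, a sorting receptor of endosomes, singled out after its values were seen. It gave 136, 261, 148 and 153 against 60.4, 130, 158, 72.0 and 80.8 in Math1-GFP tumours, where it rose by 0.75 ± 0.09 in the paired fit, against -0.26 in conventional tumours (adjusted p = 0.55 without and 0.018 with pairs). The difference of the changes was 1.01 ± 0.11 (adjusted p = 0.011 with pairs, 1.00 without). Other differences between the models listed here were not shown by a test.

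**Figure D5:**
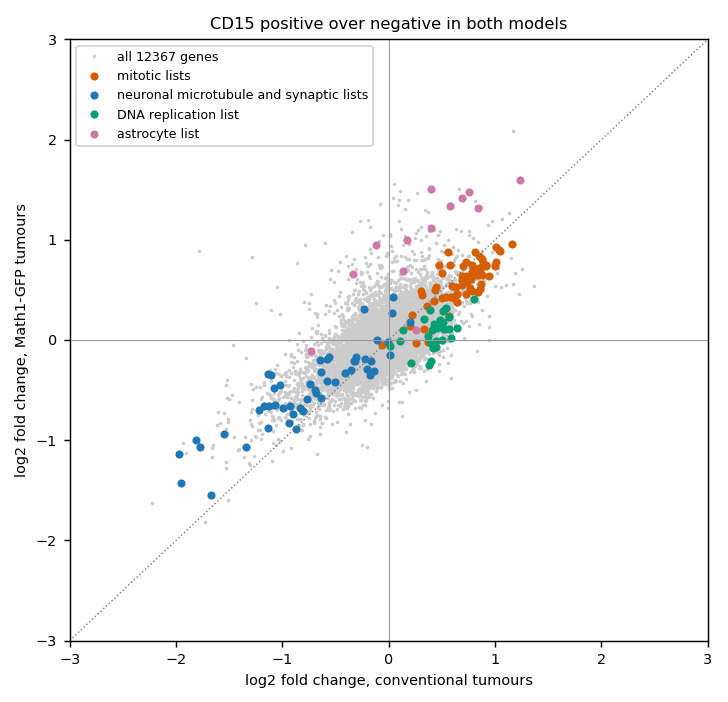
Change of each of 12367 genes between CD15 positive and negative cells (log2 scale, fit without pairs) in conventional tumours (horizontal) and Math1-GFP tumours (vertical), with genes of the mitotic, neuronal, DNA replication and astrocyte lists coloured; the dotted line marks equal change. Mitotic genes lie mostly at the upper right and neuronal genes mostly at the lower left in both models.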

How the data were processed

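RNA of sorted cells was measured on the Affymetrix Mouse Genome 430 2.0 array, 1 array a sample. The deposited values are linear intensities per probe set; each array was scaled to a trimmed mean of 150.0 (2% off each end), as the values show. What else the authors did is not stated by any label or header. From these, log2(signal + 32) was computed. Of 45101 probe sets, 64 controls were left out, 34958 had 1 gene symbol, 932 several and 9211 none, and 34754 matched the mouse reference (GRCm38.p6, used for names); none with several symbols was used. Probe sets below the 40th percentile of mean log2 signal over all 21 arrays (a signal of about 15.5) were dropped and the brightest probe set per gene was kept, leaving 12367 genes; 6122 had more than 1 past the filter.

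Group means of 4 groups over 21 arrays were fitted (limma 3.58.1, run in R 4.3.3) with 17 residual degrees of freedom and Benjamini-Hochberg adjustment. The fit with consecutive numbers, and title numbers of conventional tumours, as a block had 8. The conventional CD15 positive and CD15 negative arrays whose titles carry no number were taken as a pair. The labels do not state that pair, which was used wherever conventional arrays were paired. The correlation check that gives the pairing is in the results; the labels state none. The number of arrays limits the precision. The unpaired fit alone was tested on simulated data, with errors drawn independently for each array. The paired fit was not. Alternatives changed normalization, pseudocount, filter, probe set rule, samples, spread estimate and pairing.

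Named genes were those called in the unpaired fit, the 10 of smallest p in each direction, the 10 largest called changes in each direction of the paired fit, the 3 of smallest p per list, 5 genes of interest and the 5 of smallest interaction p; not all are given. Other genes of the lists were named after their values were seen. Members and lists were chosen with earlier results of these data known. Promoter sequences are RefSeq's.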

Additional observations from a re-analysis of the deposited data

Results flagged for a closer look

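Among 396 groups of values (159 genes and 39 lists, each in the CD15 positive and the CD15 negative arrays), 29 had an array far from the rest by Dixon's test, where chance alone flags about 1 in 20, or 20. Of the 29, 13 lay on CD15 positive array 1 and 6 on CD15 negative array 2. Values are log2(signal + 32), or its mean over a list.

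On CD15 positive array 1 the highest values were Gpr37l1 at 9.20 (next array 6.84), Car2 at 9.73 (6.83), Pdpn at 9.10 (7.05), L1cam at 8.28 (6.98), Dcx at 10.52 (9.86), Porcn at 7.92 (7.25) and B3gnt2 at 7.02 (6.51). The astrocyte list stood at 9.86 there (8.14), the microglia list at 7.33 (6.15), the neutrophil list at 7.26 (5.79) and the lipid phosphatase list at 7.40 (7.09). Gli1 at 8.62 (9.31) and the Hedgehog list at 8.24 (8.59) were lowest on that array.

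On CD15 negative array 2, Pax6 at 11.39 (10.20), Cplx2 at 10.21 (9.08), Dusp8 at 9.03 (8.64) and Porcn at 8.72 (8.25) were highest, and Boc at 8.33 (9.30) and the endothelial list at 5.79 (6.07) lowest. On array 5, Hes1 at 7.51 (6.38) and Sgo1 at 10.10 (9.47) were highest and the synaptic list at 7.98 (8.16) lowest. On array 6, Espl1 at 8.56 (8.19) and Sgo1 at 9.36 (8.87) were highest. The G1 list at 9.26 (9.36) was lowest on array 8, and Etv5 at 6.66 (8.30) and Slc1a3 at 6.33 (7.11) on array 10. On array 9, Ccne2 at 9.04 (8.30) was highest and Dclk1 at 10.53 (11.07) lowest.

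Sorl1 differed between the models by 1.01 with pairs (adjusted p = 0.011, limma). In 2 genes every pair of Math1-GFP tumours moved one way and every pair of conventional tumours the other: Ccne2 with changes of -0.14 and 0.40, and Vps13d with 0.24 and -0.56. These differences stood out by direction alone and were not tested in that form; without pairs neither passed the interaction test.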

How the results depend on the processing

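The 5 calls of the unpaired fit became 3 with quantile normalization, 3 with a pseudocount of 1, 17 with a larger pseudocount, 8 with probe sets averaged per gene, 9 with the Math1-GFP arrays alone, 11 with a trended and robust spread, 187 with array weights, 193 with a replicate block of conventional title numbers only, 900 with consecutive numbers as a replicate block and 935 with that block in the Math1-GFP arrays alone. They became 0 without arrays 1 and 2 and 0 to 13 when 1 array was left out. The 900 calls of the paired fit became 537 with a pseudocount of 1 and 310, 382, 430 and 256 without arrays 1 and 2, 5 and 6, 7 and 8, and 9 and 10. Quantile normalization moved the paired calls to 495 higher and 536 lower. The interaction count was 0 in each alternative without consecutive numbers as a block and 1 with it. The cause of these changes was not tested.

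Signs turned for the following genes, none of them called in the unpaired or the paired fit. Of 10 alternatives to the paired fit, 5 called Cxcr4 and 2 called Dclk1, both higher. With the mean of probe sets Actl6a was 0.0043, Dclk1 -0.15 (paired -0.11), Mycn 0.034 (paired 0.069), Pax6 -0.0013 and Stmn1 -0.018. With quantile normalization paired Stmn1 was -0.0035, and with array weights Hes1 was -0.080. Without arrays 1 and 2 Pax6 was -0.033, and with consecutive numbers as a replicate block, in all arrays or the Math1-GFP arrays alone, it was -0.059. Leaving out single arrays gave Atoh1 changes from -0.20 to 0.34, Cxcr4 -0.0023 to 0.55, Hes1 -0.24 to 0.25, Nes -0.49 to 0.15, Pax6 -0.31 to 0.31, Ptch1 -0.093 to 0.68 and Zic1 -0.14 to 0.0083. Leaving out a pair turned paired Mybl2 to -0.047, Mycn to 0.023, Nes to 0.12, Pax6 to 0.025 and Zic1 to 0.086. A filter at the 60th percentile gave no value for Aqp4, B3gnt2, Defa3, Galr1, Hes5, Scn3a and Spry4. Signals near background limit dim genes such as Defa3 and Galr1.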
